A study of Mus musculus with 4 samples.

Results

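The genes described here are 8 of the 32285 genes in the count matrices: Fcnb, Ltf, Camp, Ngp, S100a8, S100a9, Lcn2 and Ly6g, the genes that neutrophils switch on late in their maturation, after those of the azurophil (primary) granules. They were named by symbol and not by a measured value, although earlier results of these data were known when they were chosen. Each symbol matched 1 gene of the files. Their unique molecular identifiers (UMIs, each standing for 1 captured RNA molecule) were summed in cells with at least 10 UMIs of Elane, the gene of neutrophil elastase, called Elane-high cells below. These cells were split into those with 0 UMIs of Cebpe and those with 1 or more. Cells with at least 3 UMIs of Cd79a, a chain of the B-cell receptor complex, served as a reference for RNA carried over from other cells, and cells with at least 3 UMIs of Klf1, an erythroid transcription factor, and under 10 of Elane served as another.

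The mouse bone marrow was taken 10 weeks after transplantation, and cells were sorted on CD45.2, the allelic form of a blood cell antigen that marks one side of a transplant, together with Kit, a marker of stem and progenitor cells, or with low B220, a marker of B-lineage cells. Single-cell libraries were made with the 10x Genomics 5′ chemistry, version 2. The 4 groups, with 1 library each, were control Kit+ cells, Kit+ cells with Mll3/4 deleted, Kit+ cells labelled Mll3/4SI and control B220lo cells. Mll3 and Mll4 are older names of Kmt2c and Kmt2d, a pair of histone methyltransferases that act at enhancers. The labels do not expand SI, and they give neither the genotype of the controls, the deleted exons, a Cre or its promoter, the host, nor the number of mice behind a library. With 1 library in each group no difference below has a replicate check and no p-value is given. Intervals are exact 95% intervals that cover counting error only, and differences between libraries cannot be told apart from differences between the mice, sorts or preparations behind them.

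Neutrophils fill their granules in waves: promyelocytes load azurophil granules with elastase and myeloperoxidase, and later stages load specific granules with lactoferrin, cathelicidin and lipocalin. The transcription factor C/EBPε, the product of Cebpe, is needed for the specific granule genes in mice. S100a8 and S100a9 encode calcium-binding proteins that pair to form calprotectin, which fills the cytosol of mature neutrophils, and Ly6g encodes the surface antigen by which mouse neutrophils are sorted.

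All 8 genes are annotated as protein coding on GRCm38 (GENCODE M21), and the submitters' processing notes name the same build as mm10. Fcnb lies on the minus strand at chr2:28076378-28084885 and Lcn2 on the same strand at chr2:32384633-32388252. Camp (chr9:109847379-109849617, minus), Ngp (chr9:110419747-110423012, plus) and Ltf (chr9:111019271-111042767, plus) share chromosome 9, and Ly6g lies at chr15:75155240-75159126 on the plus strand. S100a8 (chr3:90668978-90670035, plus) and S100a9 (chr3:90692632-90695721, minus) are transcribed toward each other. The bases just upstream of S100a8, S100a9 and Fcnb are shown because these genes carry the differences described below. They are the 157 bases at chr3:90668821-90668977, the 250 bases at chr3:90695722-90695971 and the 243 bases at chr2:28084886-28085128, each read on its gene's strand from RefSeq's promoter table for GRCm38.p6, and the capitals mark matches to the C/EBP motif TTNNGNAA.
S100a8: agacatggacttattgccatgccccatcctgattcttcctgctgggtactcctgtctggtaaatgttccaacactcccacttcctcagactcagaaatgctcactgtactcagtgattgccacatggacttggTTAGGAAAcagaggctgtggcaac
S100a9: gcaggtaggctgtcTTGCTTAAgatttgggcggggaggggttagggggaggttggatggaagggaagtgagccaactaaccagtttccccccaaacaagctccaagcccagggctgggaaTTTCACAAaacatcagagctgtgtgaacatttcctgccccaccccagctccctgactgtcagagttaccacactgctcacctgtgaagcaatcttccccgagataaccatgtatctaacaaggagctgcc
Fcnb: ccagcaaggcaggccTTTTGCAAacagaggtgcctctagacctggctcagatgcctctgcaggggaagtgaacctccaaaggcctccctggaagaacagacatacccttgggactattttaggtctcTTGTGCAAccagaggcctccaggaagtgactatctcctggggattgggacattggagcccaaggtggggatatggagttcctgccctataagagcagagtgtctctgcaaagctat
Counted from the RefSeq start site, the match of S100a8 began 117 bases upstream, those of S100a9 236 and 130 bases upstream, and those of Fcnb 235 and 123 bases upstream. Searched on both strands of the 250 bases upstream, TTNNGNAA was found in 7 of the 8 genes, all but Camp, and in 36.9% of the 32851 promoter windows of 27025 genes. By the GENCODE positions, 161 of these 250 bases in Camp, 93 in S100a8, 61 in Ngp and all in Lcn2 lay inside the gene. The match of Lcn2 and the nearest of Ngp, 11 bases before the RefSeq start, were thus not upstream of the GENCODE gene. GAGGAA, a core bound by PU.1 and other ETS factors, was found in 4 of the 8 and in 23.3% of windows, and AAATCA, a GFI1 core, in 1 of the 8 (Ltf) and in 12.4% of windows. The motifs do not contain one another, although in Ltf the AAATCA match overlaps a TTNNGNAA match. Such matches describe letters and show no binding.

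The libraries held 12205, 15091, 12345 and 16861 barcodes (control Kit+, Mll3/4 deleted, Mll3/4SI, control B220lo), of which 11891, 14915, 12081 and 16329 were kept, with median totals of 12199, 6832, 12349 and 3354 UMIs. The libraries shared 214 to 345 barcodes pairwise. Elane-high cells numbered 4884, 658, 3700 and 102. In the deleted library 13743 of the kept cells held at least 3 Cd79a UMIs, against 54 and 28 in the other Kit+ libraries. Among the Elane-high cells of the deleted library 29.0% also held at least 3 Cd79a UMIs, and 8 of 8 B-lineage markers were over 2-fold higher there than in control, with a summed level of 2070 against 52.6 UMIs per 1000000 UMIs of the gate (CPM) at 0 Cebpe. Neutrophil progenitor markers summed to 34379 to 49423 CPM in the Elane-high gates of the Kit+ libraries, a sum that includes Elane and Cebpe, which define the gates. Kmt2c stood at 53.3, 38.5 and 55.8 CPM and Kmt2d at 25.3, 19.1 and 21.3 CPM in the Elane-high cells of control, deleted and Mll3/4SI libraries, but 5′ reads do not check a deletion elsewhere in the gene.

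In the Kit+ libraries most RNA of the 8 genes sat in few cells. Of the 2412 control Elane-high cells with Cebpe, 79 held at least 50 UMIs of the 8 genes summed, and these 79 held 93.5% of the summed UMIs of that gate. The corresponding cells numbered 18 of 279 (6.45%, interval 3.87 to 10.0%) in the deleted library and 86 of 1600 (5.38%, 4.32 to 6.60%) in Mll3/4SI, against 3.28% (2.60 to 4.07%) in control, and held 94.95% and 93.9%. Only 11, 3 and 10 cells held 50% of the gate's member UMIs in control, deleted and Mll3/4SI. Among cells with 0 Cebpe UMIs, 8 of 2472, 2 of 379 and 21 of 2100 cells held at least 50, with 55.5%, 38.0% and 42.0% of the member UMIs. Sums over a gate are therefore weighted toward a few cells, and ratios between libraries are also given for cells under 50 member UMIs, a limit chosen after the sums per cell were seen and set on the genes' own UMIs.

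Most Elane-high cells held few of the 8 genes. In control, 2483 cells held none, 1627 held 1 gene, 497 held 2, 163 held 3 and 56 held 4. In Mll3/4SI the numbers were 1713, 1236, 507, 172 and 41, and in the deleted library 346, 207, 68, 24 and 7. Cells with 5 or more of the genes were 1.19%, 0.912% and 0.838% of the Elane-high cells of control, deleted and Mll3/4SI. Cells with none were 50.8%, 52.6% and 46.3% of them. All 8 genes were found together in 5, 2 and 1 Elane-high cells. These counts were not matched for depth, and the Elane-high cells had median totals of 15118, 21157 and 16890 UMIs in control, deleted and Mll3/4SI. Most member RNA of each library lay outside the Elane-high gate: cells in neither the Elane-high gate nor a reference held 59.3%, 44.2% and 62.6% of the member UMIs of control, deleted and Mll3/4SI.

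**Figure D1:**
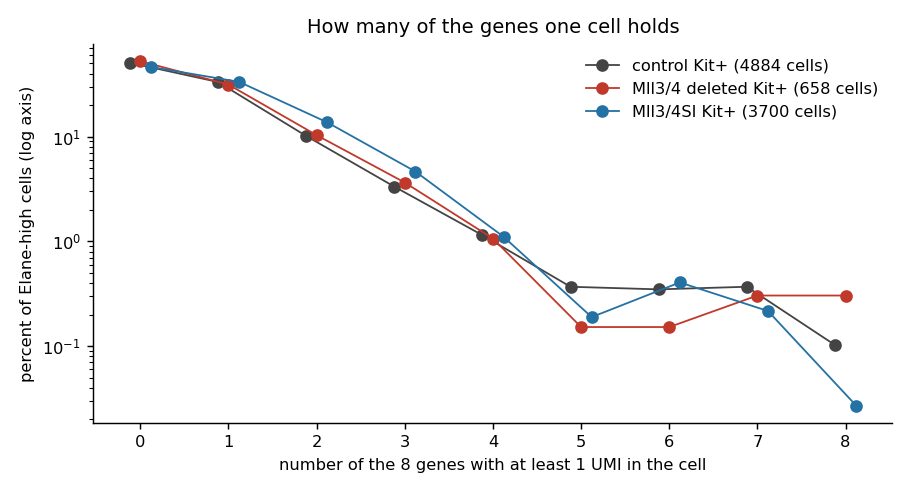
Percent of Elane-high cells (log axis) by the number of the 8 genes with at least 1 UMI in the cell, for the 3 Kit+ libraries (points joined by lines, 1 library each, no error drawn). Without matching for depth, which was highest in the deleted library, the 3 libraries run close together. None of the genes is held by 46.3 to 52.6% of cells, and 5 or more by 0.838 to 1.19%.

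Cells with Cebpe had more RNA of every member than cells without it, in each Kit+ library. Fcnb, which encodes ficolin B, a lectin of the complement system, stood at 5.83 CPM without and 16.9 CPM with Cebpe in control, 4.03 and 27.2 CPM in the deleted library, and 2.32 and 18.4 CPM in Mll3/4SI. Camp, the cathelicidin antimicrobial peptide, stood at 9.36 and 206 CPM in control, 0.941 and 217 CPM in deleted, and 1.92 and 394 CPM in Mll3/4SI. Ngp, neutrophilic granule protein, stood at 6.41 and 164 CPM, 0.403 and 184 CPM, and 1.68 and 301 CPM. The ratio between the gates was thus much smaller for Fcnb than for Camp and Ngp in each library.

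Ltf, which encodes the iron-binding protein lactoferrin, stood at 1.88 and 22.03 CPM in control and 0.203 and 14.2 CPM in Mll3/4SI. In the deleted library it had 0 UMIs without Cebpe, where 3 UMIs would be 0.403 CPM, and 37.0 CPM with it. Lcn2, which encodes a lipocalin that binds bacterial siderophores, stood at 24.4 and 73.5 CPM in control, 17.1 and 81.2 CPM in deleted, and 19.3 and 75.8 CPM in Mll3/4SI. Lcn2 was the member with the most similar levels across the libraries.

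S100a8 stood at 26.0 and 283 CPM in control, 25.8 and 671 CPM in deleted, and 95.2 and 840.1 CPM in Mll3/4SI. S100a9 stood at 37.9 and 588 CPM, 14.5 and 659 CPM, and 36.5 and 1185 CPM. Control cells thus held more S100a9 than S100a8 in both gates, whereas deleted and Mll3/4SI cells without Cebpe held more S100a8. Ly6g was near its floor, with 6 and 19 UMIs in control, 1 and 16 in deleted and 1 and 8 in Mll3/4SI, or 0.433, 2.34 and 0.263 CPM with Cebpe.

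Among genes with at least 100 UMIs in the higher gate, 7 of 7 tested members (all but Ly6g) were 2-fold or more higher with Cebpe in control, where 0.539% of 10951 genes were. The count was 7 of 7 against 0.436% of 8032 genes in the deleted library, where Ltf and Fcnb would be left with 2 and 74 UMIs, too few for a call, without the cells that also held at least 3 Cd79a UMIs, and 7 of 7 against 0.561% of 10696 genes in Mll3/4SI. The members' median log2 ratio, with 1 CPM added to both levels, was 3.20 in control, 4.95 in deleted (4.70 with Ltf at its bound) and 3.40 in Mll3/4SI, against -0.04, -0.06 and -0.07 over all genes tested. Cells with Cebpe were slightly deeper, with medians of 15766 against 14546 UMIs in control, 23110 against 19420 in deleted and 17727 against 15932 in Mll3/4SI, and a cell with 0 Cebpe UMIs need not lack the gene.

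Below 50 member UMIs the gap between the Cebpe gates was smaller, and it differed by gene. In control it was 27.8 against 12.6 CPM for S100a8 (ratio 2.21, interval 1.98 to 2.46), 18.8 against 8.18 CPM for S100a9 (2.30, 2.02 to 2.63) and 34.8 against 22.03 CPM for Lcn2 (1.58, 1.45 to 1.72). Fcnb had a ratio of 1.25 (1.04 to 1.51) and Camp of 1.14 (0.727 to 1.79), the latter from 48 and 38 UMIs. In Mll3/4SI Camp lay the other way, with 40 of 29008291 UMIs with Cebpe and 63 of 34142456 without it. The members' median log2 ratio was 0.40 in control, 0.52 in deleted and 0.11 in Mll3/4SI in these cells. Of the members called higher with Cebpe over all cells, S100a8 and S100a9 kept the call here in control. Only S100a8 kept it in deleted and Mll3/4SI. The others were under 2-fold or had under 100 UMIs, too few for a call. Most RNA of every member in control cells with Cebpe was in the member-rich cells, and nearly all of it for Camp, Ngp and Ltf. Below the limit lay 796 of 25801 UMIs of S100a9, 1176 of 12423 of S100a8, 1472 of 3222 of Lcn2 and 278 of 743 of Fcnb.

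**Figure D2:**
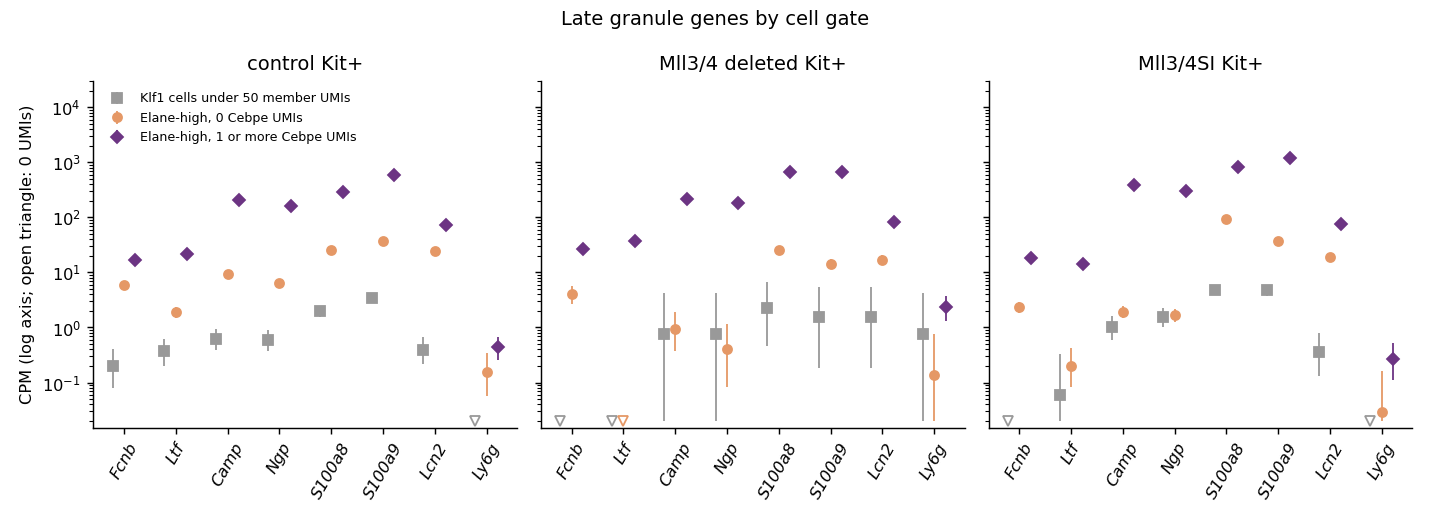
CPM of the 8 genes (log axis) in Klf1 cells under 50 member UMIs (grey squares), Elane-high cells with 0 Cebpe UMIs (orange circles) and with 1 or more (purple diamonds), 1 panel for each Kit+ library; bars are exact Poisson 95% intervals cut at the axis, and open triangles mark 0 UMIs. The diamonds lie above the circles for each gene, and S100a8 without Cebpe is higher in Mll3/4SI (95.2 CPM) than in control (26.0 CPM). The squares leave out member-rich cells and the other points do not, so their distance is not like for like. Over all Klf1 cells the 8 genes summed to 56.3, 7.60 and 277 CPM in control, deleted and Mll3/4SI. Elane-high cells with 0 Cebpe UMIs had 112, 62.9 and 157 CPM.

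With the number of Cebpe UMIs taken in steps of 0, 1, 2 to 3, and 4 or more, S100a8 stood at 26.0, 39.6, 222 and 794 CPM in control and at 95.2, 232, 424 and 2090 CPM in Mll3/4SI. In the deleted library the levels were 25.8, 156, 337 and 1497 CPM. S100a9 stood at 37.9, 51.3, 445 and 1729 CPM in control, at 14.5, 10.0, 229 and 1709 CPM in deleted and at 36.5, 122, 422 and 3413 CPM in Mll3/4SI. S100a8 was higher at each step in Mll3/4SI than in control, while S100a9 in the deleted library was below control at the 3 lower steps and within counting error of it at 4 or more. Few cells carried the sums of the upper steps. At 2 to 3 Cebpe UMIs, 5 of 899 control, 1 of 85 deleted and 7 of 536 Mll3/4SI cells held 50% of member UMIs. At 4 or more, 7 of 523, 2 of 89 and 8 of 438 cells did. The highest step held 89 of the 279 deleted cells with Cebpe and 523 of the 2412 control cells, so the sums over all cells with Cebpe weight it differently.

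The share of cells with an S100a8 UMI was highest in Mll3/4SI and lowest in control in both gates. It was 10.4% and 22.3% without and with Cebpe in control, 14.2% and 32.3% in deleted, and 23.0% and 42.2% in Mll3/4SI. With each cell thinned to 5000 UMIs, which left out 169, 13 and 122 cells without Cebpe and 18, 0 and 21 with it, the shares were 5.30% and 12.1%, 7.104% and 18.6%, and 13.9% and 27.1%. In Klf1 cells, which should lack the gene and had median totals of 21612, 25769 and 21926 UMIs, the shares were 3.92%, 6.25% and 10.2% before and 1.32%, 2.13% and 2.71% after thinning. The thinned shares without Cebpe had intervals of 4.42 to 6.29% in control and 12.4 to 15.5% in Mll3/4SI, which overlap neither each other nor those of their Klf1 cells. In the deleted library the interval without Cebpe, 4.69 to 10.2%, overlapped that of its 48 Klf1 cells, 0.0539 to 11.3%.

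The other members had thinned shares in other orders. Lcn2 was found in 11.4%, 7.104% and 8.04% of cells without and in 16.9%, 11.8% and 16.5% of cells with Cebpe in control, deleted and Mll3/4SI. S100a9 was found in 3.34%, 1.64% and 5.26% of cells without and in 8.86%, 6.45% and 10.1% of cells with Cebpe. Fcnb was found in 2.78%, 2.73% and 1.47% without and in 5.76%, 6.45% and 4.43% with it. The thinned shares in Klf1 cells of control and Mll3/4SI were 0.504% and 0.542% for Lcn2 and 2.01% and 3.93% for S100a9, and for Fcnb 0.126% and 0%. S100a9 without Cebpe was thus close to its background, while Lcn2 and Fcnb stood well above theirs.

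**Figure D3:**
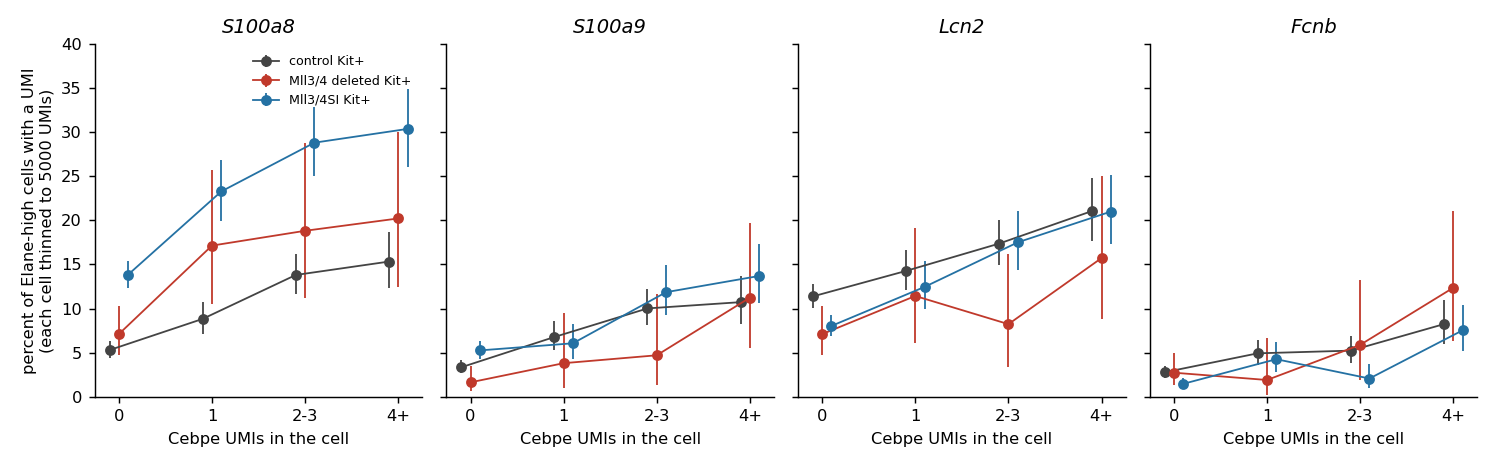
Percent of Elane-high cells with at least 1 UMI of S100a8, S100a9, Lcn2 or Fcnb after thinning each cell to 5000 UMIs, by the cell's Cebpe UMIs; points are the 3 Kit+ libraries and bars exact binomial 95% intervals. S100a8 in Mll3/4SI lies above control at each step, from 13.9% against 5.30% at 0 to 30.4% against 15.3% at 4 or more, while Lcn2 lines run closer together.

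Mll3/4SI Elane-high cells had more S100a8 than control cells in both Cebpe gates. The ratio was 3.66 without Cebpe (interval 3.41 to 3.94, log2 1.83) and 2.97 with it (2.90 to 3.03, log2 1.57). S100a9, its partner, had a ratio of 0.965 (0.894 to 1.04) without Cebpe and 2.01 (1.98 to 2.05) with it. Without the cells that Scrublet scored as doublets, the log2 ratios without Cebpe were 2.87 for S100a8, from 2911 and 385 UMIs, and 1.52 for S100a9, from 1215 and 415 UMIs, so that S100a9 too was then over 2-fold higher. Fcnb had a ratio of 0.398 (0.304 to 0.516, log2 -1.04) without Cebpe and 1.08 (0.970 to 1.21) with it, and Lcn2 of 0.792 (0.716 to 0.876) and 1.03 (0.978 to 1.09). Below 50 member UMIs Fcnb was lower than in control in both gates, with ratios of 0.423 (0.321 to 0.554) and 0.656 (0.527 to 0.813), and so was Lcn2, with 0.811 (0.730 to 0.901) and 0.884 (0.812 to 0.961).

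Among the specific granule genes, Camp and Ngp were below control without Cebpe and above it with Cebpe, and Ltf was below control in both gates. Camp had a ratio of 0.205 (0.155 to 0.267) without and 1.91 (1.86 to 1.96) with Cebpe, and Ngp of 0.263 (0.194 to 0.351) and 1.84 (1.78 to 1.90). Ltf had a ratio of 0.108 (0.0419 to 0.234) without and 0.646 (0.575 to 0.724) with Cebpe. Below 50 member UMIs the ratios of Camp and Ngp without Cebpe were 1.85 (1.22 to 2.84) and 1.90 (1.22 to 2.99), on the other side of control. The lower sums without Cebpe rested on 8 control cells rich in these genes, without which Camp went from 358 to 38 UMIs and Ngp from 245 to 34. With Cebpe the ratios below the limit were 1.22 (0.779 to 1.89) for Camp and 1.06 (0.729 to 1.53) for Ngp, so the higher sums there rested on member-rich cells too. Ltf was left with 7 UMIs against 3 in control without Cebpe and 6 against 6 with it.

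Of the members with at least 100 UMIs in the higher gate, 1 of 6 (S100a8) was 2-fold or more higher and 3 of 6 (Fcnb, Camp and Ngp) 2-fold or more lower in Mll3/4SI without Cebpe, where 2.16% and 1.53% of 10907 genes were. With Cebpe, 2 of 7 (S100a8 and S100a9) were higher and 0 of 7 lower, against 1.28% and 1.52% of 10862 genes. The S100a9 call was lost without Scrublet doublets, with Elane of at least 20, with a gate on the share of Elane, with Cebpe from 2 UMIs and with thinning before gating. Camp and Ngp were called higher with Elane of at least 5 or without the 1% most member-rich cells. Ltf was called lower with Elane of at least 20 or with thinning. The members' median log2 ratio was -0.68 without and 0.49 with Cebpe, against 0.05 and 0.02 over all genes tested. Below 50 member UMIs it was 0.33 and 0.02. There Camp and Ngp had under 100 UMIs and could not be called, and the call of S100a9 with Cebpe was lost, while those of S100a8 in both gates and of Fcnb without Cebpe held, against 2.176% of genes higher and 1.478% lower without Cebpe and 1.213% and 1.463% with it.

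In the deleted library S100a8 and S100a9 parted from each other. S100a8 had a ratio to control of 0.993 (0.846 to 1.16) without Cebpe and 2.37 (2.29 to 2.45, log2 1.24) with it. S100a9 had a ratio of 0.383 (0.312 to 0.466) without and 1.12 (1.09 to 1.16) with Cebpe. Without Scrublet doublets, S100a8 without Cebpe had a log2 ratio of 0.96, from 153 and 385 UMIs. It was then just over 2-fold higher, while S100a9 stayed lower, with 12 and 415 UMIs. Lcn2 had ratios of 0.700 (0.577 to 0.843) and 1.11 (1.01 to 1.21), and Fcnb of 0.692 (0.456 to 1.02) and 1.61 (1.36 to 1.89). With Cebpe and under 50 member UMIs these genes lay on the other side of control, at 0.798 (0.679 to 0.933) for Lcn2 and 0.859 (0.589 to 1.22) for Fcnb.

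Camp and Ngp were low without Cebpe in the deleted library, with 7 and 3 UMIs and ratios of 0.101 (0.0401 to 0.209) and 0.0629 (0.0129 to 0.186). Ltf, with 0 UMIs, was at least 4.67-fold lower than in control when 3 UMIs are put in its place. These lows rested on the 8 member-rich control cells. Without them and the other cells of 50 or more member UMIs, Camp had a ratio of 0.950 (0.358 to 2.15) from 7 and 38 UMIs and Ngp of 0.455 (0.0894 to 1.45) from 3 and 34, and Ltf, with 0 and 3 UMIs, allowed no bound. Fcnb had 0.774 (0.509 to 1.14) and Lcn2 0.708 (0.577 to 0.861) there. With Cebpe, Camp had a ratio of 1.05 (0.994 to 1.11), Ngp of 1.12 (1.06 to 1.19) and Ltf of 1.68 (1.46 to 1.93). In cells below the limit Camp then had 13 UMIs against 48 in control, Ngp 3 against 73 and Ltf 0 against 6. These are of 6378437 UMIs in deleted and 42309861 in control, so per UMI Camp was higher, from few UMIs, and Ngp lower. The values with Cebpe also moved with cells that held B-cell RNA. Of the 20 Elane-high cells with at least 50 member UMIs in the deleted library, 10 held at least 3 Cd79a UMIs. Without the cells of at least 3 Cd79a UMIs, the ratio of Ngp was 0.497 (0.443 to 0.556), that of Lcn2 0.618 (0.529 to 0.718) and that of Ltf 0.0229 (0.00277 to 0.0828), from 2 UMIs in place of 253.

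Without Cebpe, 0 of 6 tested members were 2-fold or more higher in the deleted library and 3 of 6 (Camp, Ngp and S100a9) 2-fold or more lower, against 2.07% and 3.86% of 9596 genes. Leaving out Scrublet doublets put S100a8 2-fold or more higher there. Camp and Ngp, with 40 and 29 UMIs in control, could then not be called. With Cebpe, 1 of 7 (S100a8) was higher and 0 of 7 lower, against 2.20% and 4.42% of 9633 genes. The median log2 ratio of the members was -0.91 without Cebpe (-0.76 with Ltf at its bound) and 0.41 with it, against -0.00 and -0.03 over all genes tested. In cells below the limit of 50, Camp and Ngp had under 100 UMIs and could not be called, S100a9 was 2-fold or more lower in both gates and S100a8 2-fold or more higher with Cebpe. In the same cells 2.087% of genes were higher and 3.798% lower without Cebpe, and 2.104% and 4.513% with it. Leaving out the Cd79a cells took the median with Cebpe to -0.47 and kept S100a8 at a ratio of 2.22 (2.13 to 2.32). It also put Ngp and Ltf, at the ratios given above, 2-fold or more lower than control. Both comparisons use the same control cells.

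**Figure D4:**
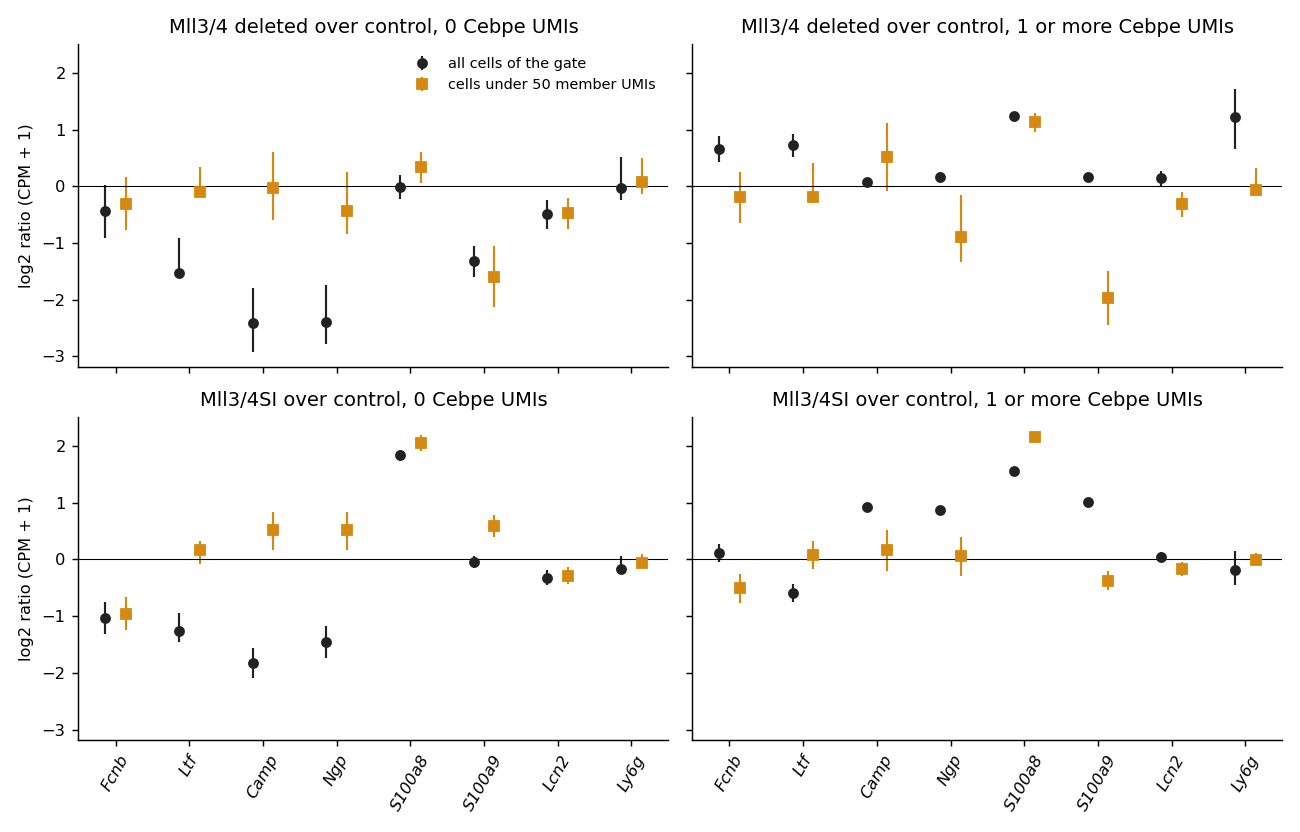
Log2 ratio of CPM, with 1 CPM added, of each gene in the deleted (top) and Mll3/4SI (bottom) library over control, in Elane-high cells with 0 (left) and with 1 or more Cebpe UMIs (right); black circles are all cells, orange squares cells under 50 member UMIs, and bars 95% intervals for counting error. S100a8 lies above 0 in 7 of the 8 values and is near 0 only in deleted cells without Cebpe when all cells are summed, and each of the 8 genes changes side with the cells summed in at least 1 panel, S100a8 only there, from -0.01 to 0.33.

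In cells under 50 member UMIs S100a8 exceeded S100a9 in both gates of each Kit+ library. Without Cebpe, S100a8 stood at 12.6 CPM in control, 16.1 CPM in deleted and 55.4 CPM in Mll3/4SI, and with Cebpe at 27.8, 61.8 and 127 CPM. S100a9 in the same cells stood at 8.18, 2.03 and 12.7 CPM without and at 18.8, 4.08 and 14.3 CPM with Cebpe. The ratio of S100a8 in Mll3/4SI to control was 4.40 (3.98 to 4.88) without and 4.58 (4.29 to 4.90) with Cebpe, and that of S100a9 was 1.56 (1.34 to 1.80) and 0.759 (0.672 to 0.855).

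For the deleted library the ratios of S100a8 were 1.28 (1.04 to 1.57) and 2.22 (1.98 to 2.49), and those of S100a9 were 0.249 (0.138 to 0.417) and 0.217 (0.141 to 0.320). S100a8 was thus higher and S100a9 lower than in control in both gates. Without the cells of at least 3 Cd79a UMIs, S100a8 had ratios of 1.79 (1.44 to 2.21) and 2.78 (2.44 to 3.17) and S100a9 of 0.234 (0.106 to 0.450) and 0.211 (0.117 to 0.350). The deleted cells left still held more B-lineage RNA than control when cells of any member count were summed, at 169 against 48.8 CPM without and 166 against 48.2 CPM with Cebpe, and its part in the result was not tested.

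Expressed as the share of S100a8 in the UMIs of the pair, control Elane-high cells under 50 member UMIs stood at 60.6% (57.1 to 64.1%) without and 59.6% (57.4 to 61.8%) with Cebpe. Deleted cells stood at 88.8% (82.2 to 93.6%) and 93.8% (91.1 to 95.9%), and Mll3/4SI cells at 81.4% (79.7 to 82.9%) and 89.9% (89.0 to 90.8%). These intervals did not reach those of the control Kit+ cells, but they count each UMI as a separate draw, which UMIs of the same cell need not be. The control B220lo library, with 59 and 23 such cells, stood at 76.5% (67.0 to 84.3%) and 72.6% (59.8 to 83.2%), above the control Kit+ cells without Cebpe and overlapping both Mll3/4SI and deleted cells there, so the 2 control libraries also differed. With no limit on member UMIs the share in Elane-high cells was 33.0% in control, 50.9% in deleted and 43.6% in Mll3/4SI, in the same order but lower. With a limit of 100 it was 50.8%, 91.4% and 84.2%, against 59.9% (58.06 to 61.75%), 92.6% and 86.8% with the limit of 50. The control share thus left its own interval when the limit was raised. The share was chosen for description after these values were seen, and it has no replicate check.

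The pair was also read cell by cell. With Cebpe and without the limit of 50, S100a8 alone was found in 307 control cells, S100a9 alone in 143 and both in 231. In deleted cells the numbers were 64, 11 and 26, and in Mll3/4SI cells 469, 79 and 206. Without Cebpe they were 203, 124 and 55 in control, 52, 13 and 2 in deleted, and 386, 140 and 96 in Mll3/4SI. Cells with S100a8 alone outnumbered cells with S100a9 alone in each gate, with the highest ratios in the deleted and Mll3/4SI cells with Cebpe.

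Outside the Elane-high gate the pair had other proportions. Klf1 cells under 50 member UMIs had an S100a8 share of 36.8% (30.0 to 44.1%) in control and 50.3% (42.3 to 58.3%) in Mll3/4SI, and cells in neither gate had 38.4%, 33.3% and 47.8% in control, deleted and Mll3/4SI. Cd79a cells under 50 member UMIs had 50.7% (47.8 to 53.6%) in the deleted library and 42.5% (41.1 to 43.9%) in the B220lo library. These include 181 and 24 cells that were also Elane-high. Cd79a cells with no Elane UMI, of any member count, had 37.7% and 41.7%. Cells with 50 or more member UMIs outside the Elane-high gate had 36.5%, 38.8%, 36.8% and 41.9% in control, deleted, Mll3/4SI and B220lo. The Elane-high cells under 50 member UMIs stood above all of these in each library.

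The Cd79a cells, the reference for carried-over RNA, could be read only where they were many. In the 13743 Cd79a cells of the deleted library S100a8 stood at 72.8 CPM, S100a9 at 109 CPM, Camp at 38.1 CPM, Ngp at 42.6 CPM and Lcn2 at 15.2 CPM. This reference shares 191 cells with the Elane-high gate, so cells with Cd79a and 0 Elane UMIs (9611 cells) were set beside Elane-high cells under 3 Cd79a UMIs. In these separate groups S100a8 stood at 44.5 CPM in the Cd79a cells, 31.1 CPM in Elane-high cells without and 631 CPM in those with Cebpe. S100a9 stood at 73.7, 2.12 and 549.5 CPM, Camp at 25.4, 0.847 and 154 CPM, and Lcn2 at 10.5, 20.97 and 45.5 CPM. Fcnb stood at 0.181, 5.51 and 18.7 CPM, and Ltf at 7.47 CPM, 0 UMIs and 0.506 CPM. Without Cebpe the S100 genes, Camp and Ltf were thus below the Cd79a cells and Fcnb and Lcn2 above them, and with Cebpe Ltf was still below. In the 54 control and 28 Mll3/4SI Cd79a cells no member had more than 9 UMIs. Below 50 member UMIs the Cd79a cells of the deleted library had 5.17 CPM of S100a8 and 5.03 CPM of S100a9, so their level too came mostly from member-rich cells. Elane-high cells without Cebpe and under 3 Cd79a UMIs had 22.6 CPM of S100a8 below that limit, so for S100a8 they then lay above the Cd79a cells.

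The level of S100a8 was itself higher in Mll3/4SI cells that should lack it. Over all Klf1 cells S100a8 stood at 73.4 CPM in Mll3/4SI and 16.4 CPM in control (ratio 4.48, 4.06 to 4.95), and S100a9 at 110 and 25.3 CPM (4.34, 4.00 to 4.70), but 3 of the 748 Mll3/4SI cells and 3 of the 1607 control cells held 95.5% and 86.6% of the member UMIs of these gates. Klf1 cells under 50 member UMIs had 1.98 CPM in control and 4.84 CPM in Mll3/4SI (ratio 2.44, 1.75 to 3.41) of S100a8, and 3.40 and 4.78 CPM (1.41, 1.05 to 1.88) of S100a9. For S100a8, cells in neither gate had 5.75 and 8.91 CPM (1.55, 1.34 to 1.79). Their levels were below those of Elane-high cells without Cebpe, at 12.6 and 55.4 CPM, and the part of carried-over RNA in the Elane-high difference was not tested. Lcn2 and Fcnb were rare in control Klf1 cells, at 0.397 and 0.198 CPM.

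**Figure D5:**
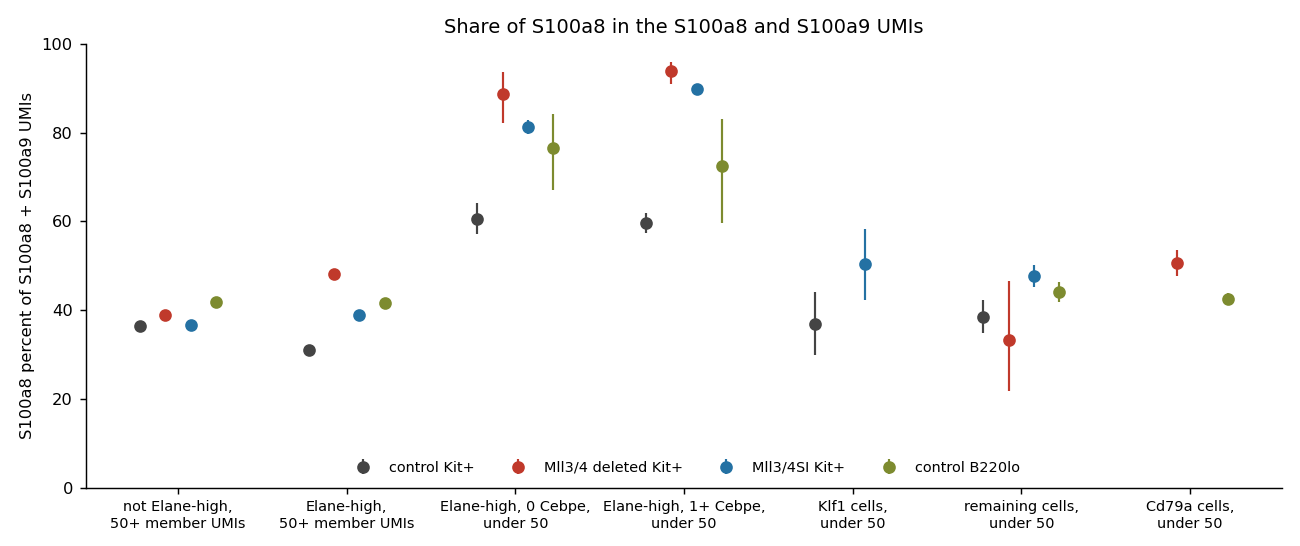
S100a8 as a percent of the S100a8 and S100a9 UMIs in 7 groups of cells, for the 4 libraries (points; bars are exact binomial 95% intervals, and groups with under 50 UMIs of the pair are left out). Elane-high cells under 50 member UMIs lie at 59.6 to 60.6% in control Kit+, at 72.6 to 76.5% in control B220lo and at 81.4 to 93.8% in the deleted and Mll3/4SI libraries, while the reference and member-rich cells lie at 31.0 to 50.7%.

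Other cell types' markers also differed between the Elane-high gates of the libraries. Erythroid markers summed to 395 and 512 CPM without and with Cebpe in control, 10.2 and 9.65 CPM in deleted, and 154 and 123 CPM in Mll3/4SI, with 5, 4 and 5 of 5 markers found. Basophil or mast cell markers summed to 92.7 and 153 CPM, 25.0 and 29.1 CPM, and 572 and 422 CPM, with 3 to 5 of 5 found. Megakaryocyte markers summed to 63.7 and 80.0 CPM in control, 2.55 and 12.7 CPM in deleted, and 62.5 and 50.6 CPM in Mll3/4SI, with 3 of 3 found. Monocyte markers summed to 1182 and 413 CPM in control, 1430 and 426 CPM in deleted, and 959 and 492 CPM in Mll3/4SI. The part of such cells in the levels of the 8 genes was not tested.

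The B220lo library held few Elane-high cells, and those with Cebpe had higher levels of 7 of the 8 genes than those of any Kit+ library, while Ly6g, with 2 UMIs, was under the floor of 3 and was not ranked. This order rested on 17 cells with 99.8% of the gate's member UMIs, and in the other 23 cells S100a8 stood at 89.1 CPM, below the 127 CPM of Mll3/4SI. The 62 B220lo cells without and 40 with Cebpe had 544 and 18959 CPM of S100a8, 616 and 26590 CPM of S100a9, 2.82 and 10326 CPM of Camp and 5.65 and 8317 CPM of Ngp. Without Cebpe 3 of the 62 cells held 89.45% of the gate's member UMIs. The other 59 cells had 78 of the 578 UMIs of S100a8 and 24 of the 654 of S100a9. Fcnb stood at 14.1 and 360.4 CPM, Lcn2 at 22.6 and 1201 CPM, and Ltf at 0 UMIs and 443 CPM. In the 11644 Cd79a cells of this library, 16.1% had an S100a8 UMI (10.8% at 5000 UMIs), against 3.74% (2.30%) of those of the deleted library. The median totals were 3204 and 6781 UMIs, so the 5000-UMI share left out most of the B220lo cells. Summed over the 8 genes, the B220lo Cd79a cells stood at 1996 CPM. Elane-high cells of this library stood at 1205 CPM without and 66199 CPM with Cebpe. In separate groups, Cd79a cells with no Elane UMI had 1432 CPM, and Elane-high cells without Cebpe and under 3 Cd79a UMIs had 1664 CPM. The B220lo levels without Cebpe were thus close to this reference or below it.

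Genes of the azurophil granules were compared as a list of 9, Elane itself among them, all of which had at least 100 UMIs. None was 2-fold or more apart from control except Nkg7, a granule membrane protein, in Mll3/4SI, with ratios of 0.278 (0.270 to 0.287) without and 0.489 with Cebpe. These are 0 of 9 in deleted cells and 1 of 9 lower in Mll3/4SI cells in each gate, where 1.28 to 2.20% of all genes tested were higher and 1.52 to 4.42% lower. Their median log2 ratio was 0.22 and 0.22 in deleted and 0.23 and 0.25 in Mll3/4SI, without and with Cebpe. The late granule genes and the azurophil genes thus had medians on different sides of 0 without Cebpe in both libraries, but below 50 member UMIs the median of the late genes in Mll3/4SI was above 0.

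Of 22 other specific granule, gelatinase granule and secretory genes, 1 of 14 tested was 2-fold or more higher and 3 of 14 lower in deleted cells without Cebpe, and 3 and 2 of 16 with it, where 2.07% and 3.86%, and 2.20% and 4.42%, of all genes tested were. In Mll3/4SI the counts were 1 and 3 of 16 without and 1 and 2 of 17 with Cebpe, against 2.16% and 1.53%, and 1.28% and 1.52%. Chil3, a chitinase-like secreted protein, had ratios of 4.19 (3.57 to 4.93) and 3.01 in deleted and of 0.221 (0.168 to 0.287) and 0.375 in Mll3/4SI. Cxcr2, a chemokine receptor of neutrophils, had 0.437 (0.269 to 0.675) and 0.345 in deleted and 5.30 (4.63 to 6.09) and 3.25 in Mll3/4SI. These genes stood on opposite sides of control in the 2 libraries.

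Of 9 regulators of granule genes, among them Gfi1 and Spi1, 7 had enough UMIs both without and with Cebpe, apart from Cebpe itself, which defines the gates, and 0 of these 7 were 2-fold or more apart from control, against 1.28 to 4.42% of all genes tested in each direction. Irf8, a monocyte-lineage regulator, was lower with Cebpe than without it in each library, with ratios of 0.329, 0.232 and 0.469 in control, deleted and Mll3/4SI. Across 18 points (4 Cebpe steps, the Cd79a and the Klf1 reference in 3 Kit+ libraries), the members' own correlations with their mean log2 level ran from 0.669 for Ly6g to 0.969 for Camp. The 5 genes outside the list that followed that mean most closely, of 14721 compared, were 4930438A08Rik (Pearson's r 0.936), Cd177 (0.922), Chil1 (0.908), Gm34680 (0.887) and Sncaip (0.879). Cd177 is a surface protein of neutrophils and Chil1 a chitinase-like protein of their specific granules. The points share libraries and depth, and these correlations are a description only.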

How the data were processed

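UMI counts per gene and cell from 4 single-cell libraries were used as the authors deposited them, as whole-number raw counts. The submitters' processing notes name Cell Ranger 7.1.0 and mm10. Cells with at least 1000 UMIs, 500 genes and at most 10% mitochondrial UMIs were kept, and doublets were left in. Scrublet in scanpy 1.11.5 was run as an alternative at a score of 0.25, because its own threshold marked almost no cells in 3 libraries. UMIs were summed by gate and scaled to CPM with Python 3.11.15, numpy 2.4.6, scipy 1.17.1 and pandas 2.3.3. Levels carry exact Poisson intervals, shares Clopper-Pearson intervals, and ratios exact conditional binomial intervals. A call is a 2-fold difference in CPM among genes with at least 100 UMIs in the higher gate. UMIs count molecule ends, so CPM has no length term. Thinning kept 2000 or 5000 UMIs a cell. The ratio and interval code was tested on simulated data. The named genes are the 8 members, genes of 3 lists (azurophil, other granule and secretory, regulators) and the 5 other genes with the highest Pearson's r to the members' mean log2 level. Nkg7, Chil3, Cxcr2 and Irf8 were singled out from the lists after their values were seen. Members and lists were chosen with earlier results of these data known. The limit of 50 member UMIs, the S100a8 share and the 5000-UMI depth were chosen after seeing the data. Alternatives changed filters, gates, doublets, pseudocount and averaging.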

Additional observations from a re-analysis of the deposited data

Results flagged for a closer look

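In some cases a member lay on one side of control in Elane-high cells without Cebpe and on the other side in cells with it, within 1 library. The difference between the gates was not tested, because each group is 1 library. In the deleted library Ltf had a log2 ratio to control of -1.53 without and 0.72 with Cebpe, and Ngp had -2.40 and 0.16. S100a9 had -1.33 and 0.16 there, and Lcn2 had -0.49 and 0.14. In Mll3/4SI Camp had -1.83 without and 0.93 with Cebpe, and Ngp had -1.47 and 0.88. The sums behind these values rest on few member-rich cells. Without cells of 50 or more member UMIs the pairs in the deleted library were -0.11 and -0.19 for Ltf, -0.43 and -0.89 for Ngp, -1.60 and -1.97 for S100a9, and -0.47 and -0.32 for Lcn2. In Mll3/4SI they were 0.51 and 0.16 for Camp and 0.51 and 0.053 for Ngp. None of the 6 pairs changed side there, but that of Ltf, from 0 against 3 and 0 against 6 UMIs, could not. The intervals of Ngp in deleted cells without Cebpe, and of Camp and Ngp in Mll3/4SI cells with it, included equal levels. Within the steps of 1, 2 to 3, and 4 or more Cebpe UMIs, deleted cells had 10.0, 229 and 1709 CPM of S100a9, while control cells had 51.3, 445 and 1729 CPM.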

How the results depend on the processing

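No paired analysis was possible because each group holds 1 library. Values below are log2 ratios, and medians are over the 8 genes. The 2 other pseudocounts could not change the direction of a gene's ratio, and leaving out the barcode filter barely changed the sums. Counts of alternatives that kept a direction include these. S100a8 kept its direction under 17 of 17 alternatives in Mll3/4SI without Cebpe (1.55 to 2.87), in Mll3/4SI with Cebpe (1.32 to 2.27) and in deleted cells with Cebpe (1.10 to 2.40), but in deleted cells without Cebpe it ran from -4.51 with the Cd79a reference subtracted to 0.96 without Scrublet doublets, where S100a9 was -5.20 and -2.29. The reference stood above that gate for both genes in the deleted library, so the subtraction left none of their RNA. The values -4.51 and -5.20 were thus set by the control level and the 1 CPM added, and measure neither gene in deleted cells. Fcnb in Mll3/4SI without Cebpe stayed below control (-1.29 to -0.36). Few UMIs limit the reading of Ly6g, which had at most 19 in these gates. The causes of the shifts below were not tested.

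In deleted cells with Cebpe, leaving out cells with Cd79a gave a median of -0.47, with Ltf -3.94, Ngp -1.0, S100a9 -0.10, Lcn2 -0.68 and Ly6g -0.52. Leaving out cells of 50 or more member UMIs gave a median of -0.19, with Fcnb -0.19, Ltf -0.19, Ngp -0.89, S100a9 -1.97, Lcn2 -0.32 and Ly6g -0.067. Ngp was -0.40 without Scrublet doublets, -0.32 with thinning to 5000 UMIs before gating, -0.18 as a mean of single-cell CPM and -0.18 with the Cd79a reference subtracted. Lcn2 was -0.16 with thinning and -0.10 as a mean of single-cell CPM, and S100a9 was -0.090 with the reference subtracted. The median was 0.17 as a mean of single-cell CPM, 0.92 without the 1% most member-rich cells, 0.26 with the reference subtracted and 0.20 with a pseudocount of 10. Without those 1% Camp was 1.74, from 237 UMIs against 427 in control.

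In Mll3/4SI cells with Cebpe the median was 0.32 without Scrublet doublets, 0.78 with Elane of at least 5, 0.22 with at least 20, 0.29 with a gate on the share of Elane, 0.36 with thinning, 0.33 as a mean of single-cell CPM, 0.85 without the 1% most member-rich cells, 0.60 with the reference subtracted and 0.018 without cells of 50 or more member UMIs. Ltf was 0.47 without the top 1% and 0.080 without cells of 50 or more, where S100a9 was -0.38.

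In deleted cells without Cebpe the median was -0.32 without Scrublet doublets, -0.23 with the share gate, -0.36 with thinning, -0.25 without the top 1%, -1.62 with the reference subtracted, -0.30 with a pseudocount of 10 and -0.21 without cells of 50 or more. The subtraction left no RNA in these deleted cells for any member but Fcnb and Lcn2, because the reference stood above the gate. With the share gate Ltf was 1.498 and Ngp 0.073.

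In Mll3/4SI cells without Cebpe the median was 0.19 without Scrublet doublets, 0.34 without the top 1%, -0.31 with the reference subtracted, -0.23 with a pseudocount of 10, -1.14 with one of 0.1 and 0.33 without cells of 50 or more. Under the first, second and last of these, Ltf was 0.091, 0.16 and 0.16, Camp 0.29, 0.52 and 0.51, and Ngp 0.50, 0.55 and 0.51. Lcn2 was 0.84 with the reference subtracted, but the control reference was 54 cells with 9 Lcn2 UMIs. Without its cells that were also Elane-high it was 43 cells with 0 Lcn2 UMIs. The value therefore cannot be read as a change of Lcn2. S100a9, at -0.05 in all cells, was 1.52 without Scrublet doublets and 1.22 without the top 1%.

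For cells with over cells without Cebpe in control the median was 4.40 without Scrublet doublets, 3.44 with Elane of at least 5, 2.95 with the share gate, 3.84 with Cebpe from 2 UMIs, 2.66 with thinning, 3.43 as a mean of single-cell CPM, 2.06 without the top 1%, 2.23 and 3.46 with pseudocounts of 10 and 0.1, and 0.40 without cells of 50 or more, where Ly6g was -0.043. The S100a8 share of the pair with a limit of 100 member UMIs was 50.8% in control and 84.2% in Mll3/4SI, and with no limit 33.0% in control, 50.9% in deleted and 43.6% in Mll3/4SI.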
